A study of Homo sapiens with 12 samples.

Results

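NF-kappaB pathway mRNAs were examined in RNA recovered with ADAR3, a relative of the adenosine-to-inosine RNA editing enzymes that binds double-stranded RNA and is itself not known to edit. The set holds 32 mRNAs chosen by gene identifier, out of 31707 genes with a read in any library, and all 32 were listed in both deposited tables. It spans the receptor-level adaptors, the kinases, the IkappaB inhibitors, the NF-kappaB subunits and some secreted targets of the pathway. The cells were U373-MG, a human glioblastoma line. All 3 groups came from these cells without any genetic change or drug named in the labels, and ADAR3 was the endogenous protein. The 4 ADAR3 IP libraries hold RNA from immunoprecipitation (IP) with an antibody to ADAR3. The 4 pre-immune IP libraries hold RNA from IP with pre-immune serum, the control for recovery that does not depend on the antibody. The 4 input libraries hold RNA taken without IP. All cells had been crosslinked with ultraviolet light at 150 mJ/cm2 and sonicated. The labels name 1 cell line and do not say whether replicates were separate cultures, and the spread that p-values rest on may be technical.

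NF-kappaB is a family of dimeric transcription factors that IkappaB proteins hold in the cytoplasm. Receptors for cytokines such as TNF recruit TRAF, TRADD and RIPK1 proteins, which activate the kinase TAK1 and the IkappaB kinase (IKK) complex. IKK marks IkappaB for destruction, and the freed dimers switch on target genes, among them the gene for IkappaB-alpha itself, which closes a negative feedback loop. In glioblastoma the pathway is known for driving inflammatory and survival genes, and ADAR3 has been reported to raise NF-kappaB activity in glioblastoma cells. The comparison of the IPs addresses which of the pathway's mRNAs made up more of the RNA recovered with the ADAR3 antibody than of the RNA recovered with serum.

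Some of these mRNAs come from genes that NF-kappaB itself controls through kappaB sites. The kappaB consensus was looked for on both strands in the 250 bases before the gene start, using RefSeq promoters of GRCh38.p14. The start in that table was the outer end of the annotated gene for 21 of the members. It lay inside the gene by 70 bases for CYLD, 910 for TNFAIP3 and 1003 for BCL3. The distance was 4558 bases for TRAF2, 6382 for IKBKG and 99786 for TAB2. For these members the bases searched lay in part or wholly inside the annotated gene. The lack of a match in all of them but TNFAIP3 thus does not fully cover the bases before the outer end. The consensus was present for 8 of the 27 members with a promoter in that table, or 29.6%, and for 1380 of all 27305 genes, or 5.05%. The set was chosen to hold some targets of NF-kappaB, so a higher share was built into it and is not a finding. The 8 were NFKB1, REL, NFKBIA, NFKBIZ, TNFAIP3, TRAF3, BIRC3 and IL6. CXCL8, TRAF1 and NFKB2 were searched and had no match, which does not show that they lack kappaB sites. CCL2 had no promoter to search. Windows of 30 bases, read along the gene's strand, are shown because they let a reader see which members carry the consensus beside their start. Capitals mark the match, which may lie on either strand. TNFAIP3 and BIRC3 have a second match each, of which the one farther from the start is shown, and REL, not shown, has overlapping matches on both strands.
NFKBIA, chr14:35404811-35404840, minus strand: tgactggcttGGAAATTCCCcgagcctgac
TNFAIP3, chr6:137867182-137867211, plus strand: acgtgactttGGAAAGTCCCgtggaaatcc
BIRC3, chr11:102317275-102317304, plus strand: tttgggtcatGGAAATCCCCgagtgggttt
IL6, chr7:22727117-22727146, plus strand: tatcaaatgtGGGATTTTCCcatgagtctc
NFKB1, chr4:102501300-102501329, plus strand: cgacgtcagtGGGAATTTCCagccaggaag
TRAF3, chr14:102777406-102777435, plus strand: cgggcgcgccGGGGATTTCCagcgcgcgag
NFKBIZ, chr3:101827757-101827786, plus strand: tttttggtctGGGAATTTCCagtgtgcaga
A match describes these letters and is not evidence of binding, and the RNA libraries do not measure these sites. The 8 genes did not form 1 group in the IP data. NFKBIA and IL6 had every ADAR3 IP library above every pre-immune library. NFKB1, REL, NFKBIZ, TNFAIP3, TRAF3 and BIRC3 overlapped between the IPs. Of 11112 genes whose normalized counts averaged 50 or more in the IPs, 8.80% had every ADAR3 IP library above. IL6, TNFAIP3 and BIRC3 were below that minimum, so that share does not cover them.

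Gene-assigned reads numbered 23999234 to 30156884 per library in ADAR3 IP, 1875461 to 4946149 with pre-immune serum and 4873428 to 12772412 in input. Levels are given in CPM (a gene's reads scaled to the gene-assigned total of its library). They are not divided by gene length, so they are compared between groups and not between genes. The 32 mRNAs together made up 1672 ± 36.4 CPM of ADAR3 IP, 1429 ± 123 CPM of pre-immune IP and 1504 ± 32.03 CPM of input (SD, n = 4 each). The ADAR3 IP libraries lay at 1621 to 1701 CPM, above the 1319 to 1581 CPM of the pre-immune libraries and the 1477 to 1546 CPM of input. This sum does not describe each member, and it was not compared with sums of other genes. The excess of MAP3K14 plus NFKBIA over input was larger than that of the whole sum. Without MAP3K14 and NFKBIA, the sums of the ADAR3 IP libraries overlapped those of both other groups. MAP3K14 and NFKBIA had the largest excess, at means of 251 and 137 CPM in ADAR3 IP, 160 and 46.2 CPM in pre-immune IP and 146 and 62.7 CPM in input. Other members went the other way, among them CCL2, at 91.4, 136 and 194 CPM. Replicates of these mRNAs spread unequally, as those of other genes did. On the log2 scale their median SD was 0.21 for ADAR3 IP, 0.76 for pre-immune IP and 0.097 for input over the 27 members whose normalized counts averaged 50 or more in the IPs, against 0.21, 0.81 and 0.11 over all genes at that minimum. Those 27 are the members that could be tested. TNFAIP3, TRAF1, BIRC3, CXCL8 and IL6 fell below the minimum.

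**Figure D1:**
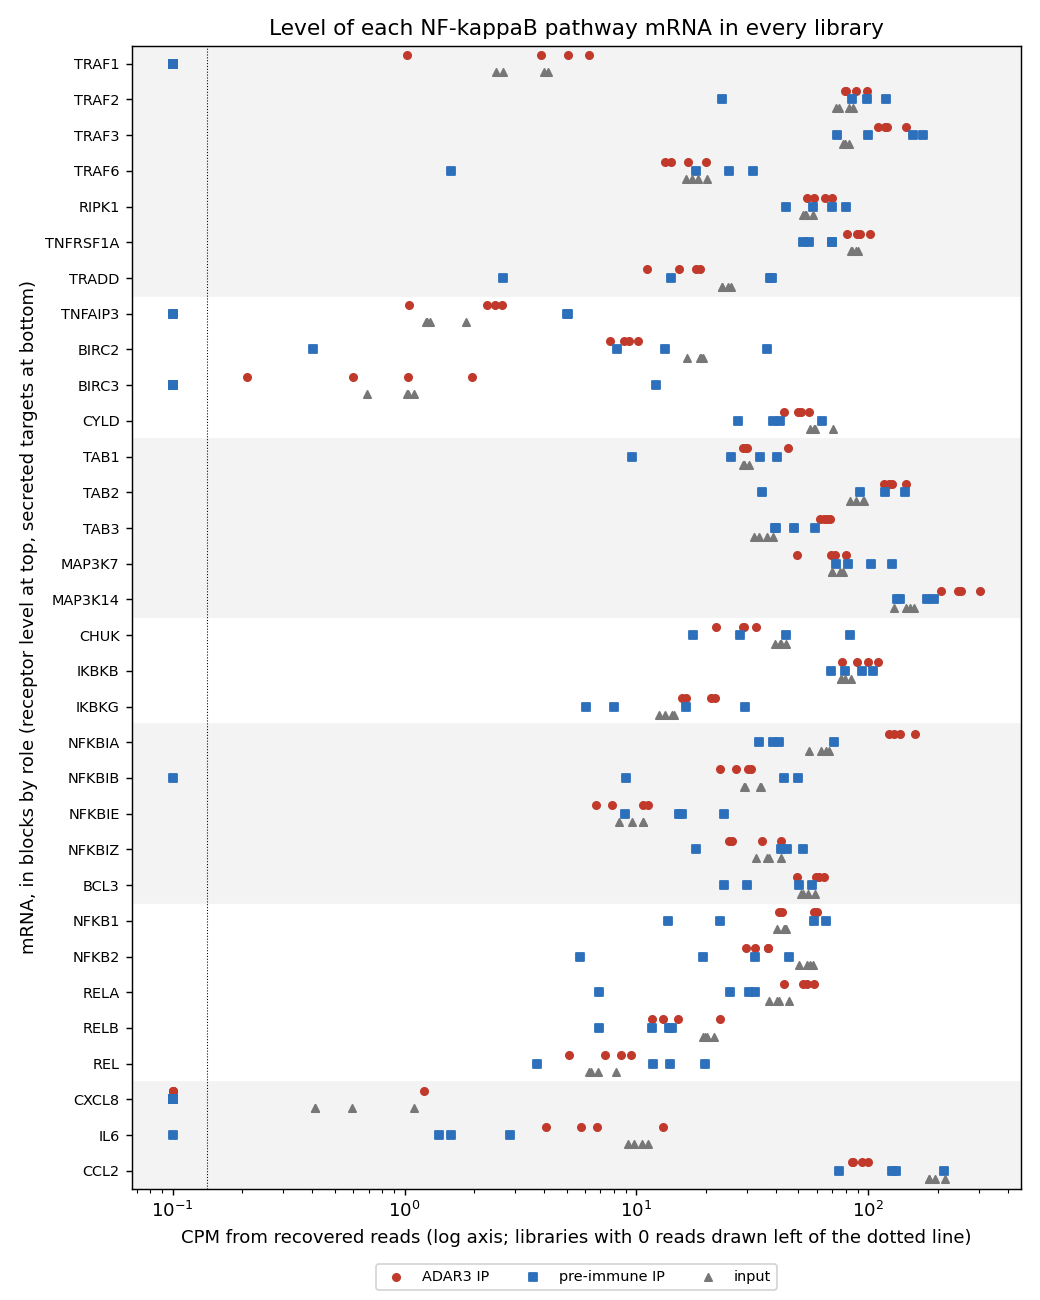
Level of each of the 32 NF-kappaB pathway mRNAs in every library, in CPM on a log axis (red circles, ADAR3 IP; blue squares, pre-immune IP; grey triangles, input; 4 libraries each; shaded blocks group the mRNAs by role). Pre-immune libraries scatter most, 6 of the mRNAs have at least 1 pre-immune library with 0 reads, and NFKBIA, MAP3K14 and TAB3 have all ADAR3 IP libraries above both other groups.

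NFKBIA (ENSG00000100906), which encodes IkappaB-alpha, the main cytoplasmic inhibitor and feedback target of NF-kappaB, was the one of the 27 tested mRNAs that limma called higher in ADAR3 IP than in pre-immune IP. It stood at 123, 129, 137 and 159 CPM in ADAR3 IP, against 38.8, 71.2, 33.7 and 41.1 CPM with pre-immune serum and 55.3, 62.4, 65.7 and 67.6 CPM in input. Every ADAR3 IP library lay above every library of the other groups, while pre-immune IP and input overlapped. The log2 fold change of ADAR3 IP over pre-immune IP was 1.54 ± 0.26 (SE; adjusted p = 0.00823 by limma), with a 95% interval of 0.96 to 2.12. The mean level in ADAR3 IP was 2.19 times that in input, and the mean level in pre-immune IP was 0.736 times that in input. IP and input were deposited in tables normalized separately, and these ratios to input were not tested. NFKBIA ranked 142 of 11112 genes by p-value. Its log2 ratio of ADAR3 IP over input was exceeded by 4.84% of the 11107 tested genes listed in both tables. The gene lies at chr14:35401513-35404749 of GRCh38.p14.

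Across the whole set, limma called 1 of the 27 tested members higher in ADAR3 IP and 0 lower, where 2.33% of the 11112 genes tested were called higher and 1.74% lower. A share of 1 in 27 is near that background. At an unadjusted p under 0.05 there were 4 members higher, NFKBIA, RELA, MAP3K14 and TNFRSF1A, where 10.2% of all genes tested were, and 1 lower, MAP3K7, where 7.33% were. edgeR tested 30 members and called 3 higher, NFKBIA, MAP3K14 and TRAF1, and 0 lower. Of 14470 genes it called 6.90% higher and 1.69% lower. In the authors' deposited table the adjusted p was under 0.05 for these 3 and for TAB3, TNFRSF1A and IL6, all higher, where it was so for 8.75% of 17946 genes higher and 5.63% lower. The median log2 fold change of the 27 was 0.34, with quartiles of -0.07 and 0.50, beside a median of 0.25 and quartiles of -0.23 and 0.93 over all genes tested. On the deposited normalized counts, 4 of the 27, RELA, NFKBIA, TAB3 and TNFRSF1A, had all ADAR3 IP libraries above all pre-immune libraries, where 8.80% of all genes tested did. In the other direction it was 0 of 27, where 6.68% of all genes did. The 26 members that were not called had adjusted p-values of 0.0939 to 0.968. Intervals were often wide: over the 27, the 95% interval reached 0.37 to 3.56 to either side of the log2 fold change, with a median of 0.93.

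**Figure D2:**
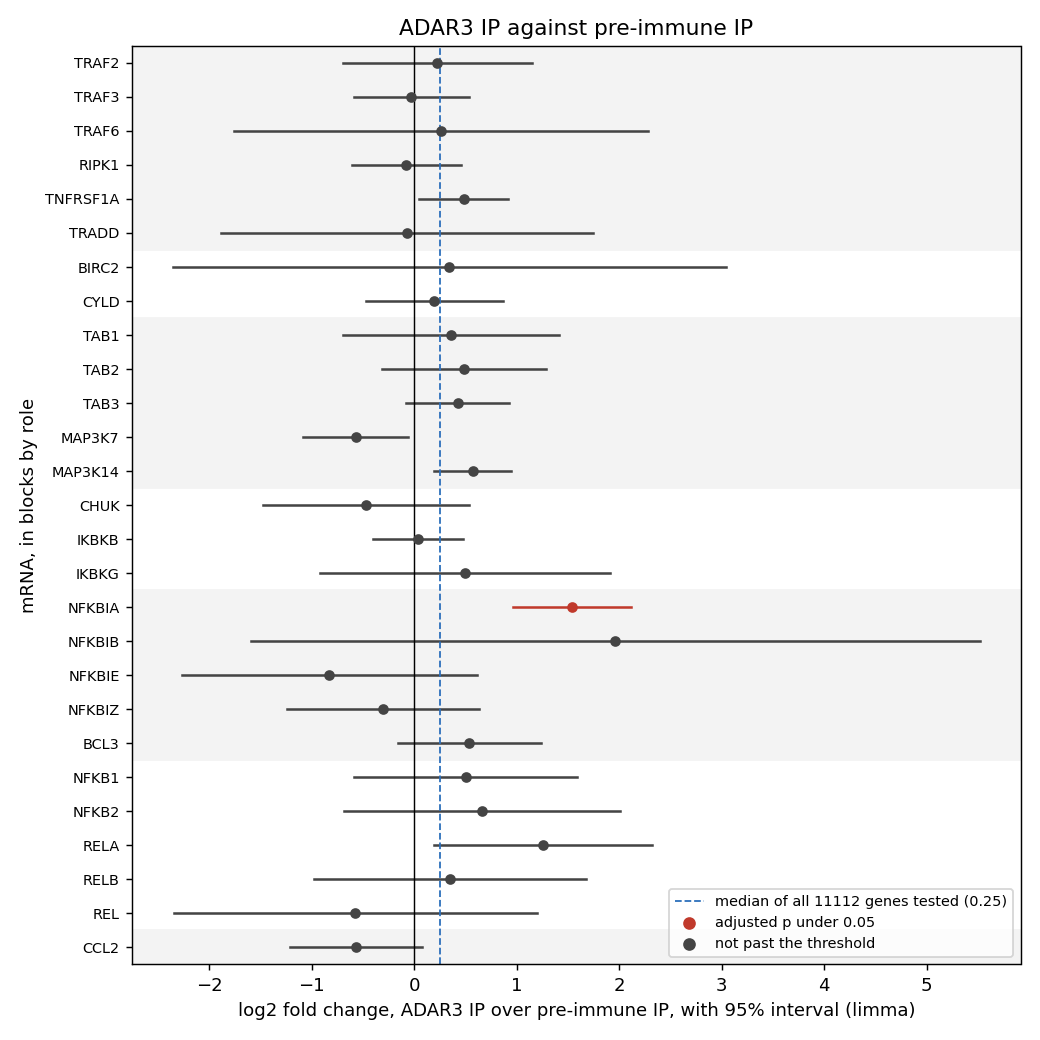
Log2 fold change of ADAR3 IP over pre-immune IP with its 95% limma interval for the 27 mRNAs tested, in blocks by role. NFKBIA (red) lies at 1.54 and is the one of these 27 past limma's threshold. The dashed line marks the median of all genes tested, 0.25.

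Among receptor-level genes, 0 of the 6 tested members passed the test. TNFRSF1A (ENSG00000067182), the main TNF receptor, stood at 102, 92.3, 89.8 and 80.8 CPM in ADAR3 IP, against 52.4, 55.8, 69.5 and 69.8 CPM with pre-immune serum and 84.7, 88.6, 90.3 and 84.2 CPM in input. All ADAR3 IP libraries were above all pre-immune libraries, and ADAR3 IP overlapped input, with pre-immune IP below both. Its log2 fold change of ADAR3 IP over pre-immune IP was 0.48 ± 0.196 (SE; adjusted p = 0.225 by limma). The authors' deposited table gives 0.49 with an adjusted p of 0.00776. TRAF3 (ENSG00000131323), an adaptor that restrains the alternative branch of the pathway, averaged 124 ± 15.5 CPM in ADAR3 IP, against 125 ± 46.6 CPM with pre-immune serum and 80.0 ± 2.11 CPM in input (SD, n = 4 each). All its ADAR3 IP libraries were above input, but so was its pre-immune mean. TRADD (ENSG00000102871), the adaptor that binds the TNF receptor's death domain, averaged 15.8 ± 3.48 CPM in ADAR3 IP, against 23.3 ± 17.8 CPM with pre-immune serum and 24.3 ± 1.12 CPM in input, and all its ADAR3 IP libraries were below input. TRAF2 (ENSG00000127191), TRAF6 (ENSG00000175104) and RIPK1 (ENSG00000137275), the other adaptors and the scaffold kinase between receptor and IKK, had log2 fold changes of 0.23, 0.26 and -0.07, with limma adjusted p-values of 0.787, 0.888 and 0.880.

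TRAF1 (ENSG00000056558), an adaptor that is itself an NF-kappaB target, stood at 5.07, 6.23, 1.03 and 3.88 CPM in ADAR3 IP, against 0 in all 4 pre-immune libraries and 3.99, 4.15, 2.67 and 2.47 CPM in input. These levels come from 456 reads in ADAR3 IP and 130 in input. With 0 reads among 14008919 in pre-immune IP, 3 reads over the group would allow up to 0.214 CPM there. Over pooled reads, and by counting error alone, TRAF1 was at least 19.3-fold higher in ADAR3 IP than in pre-immune IP. By the same measure it was at least 16.2-fold lower in pre-immune IP than in input. Without pre-immune replicate 1, the deepest of its group, 3 reads would allow 0.331 CPM, and the bounds were 12.5-fold and 10.5-fold. They cover counting error only and leave out the spread between libraries, in pre-immune IP as in the other groups. Pre-immune libraries can lack an mRNA by more than counting error: NFKBIB had 214, 0, 218 and 17 reads there. With such spread, the true level of TRAF1 in pre-immune IP may lie above these bounds. ADAR3 IP and input overlapped, with a ratio of pooled reads of 1.19 and a 95% exact interval of 0.978 to 1.46, which covers counting error only. The mRNA was below the minimum of the limma test. edgeR on recovered reads gave an adjusted p of 0.0241, and 0.188 with the replicate number as a block. Over the 5 settings that tested it, the adjusted p ranged from 0.000417 to 0.188.

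Enzymes that edit or build ubiquitin chains on the pathway gave 0 calls among 2 tested members. BIRC2 (ENSG00000110330), the ubiquitin ligase cIAP1, stood at 8.84, 10.2, 9.29 and 7.71 CPM in ADAR3 IP, against 0.404, 8.23, 36.7 and 13.3 CPM with pre-immune serum and 19.0, 19.4, 18.9 and 16.5 CPM in input. ADAR3 IP libraries were all below input, at 0.489 of its mean, while the pre-immune libraries spanned both groups. The log2 fold change over pre-immune IP was 0.34 ± 1.23 (SE; adjusted p = 0.891 by limma), while the ratio of mean CPM was 0.615, so mean logs and mean levels differ in sign for this mRNA. CYLD (ENSG00000083799), a deubiquitinase that dampens signalling, averaged 49.9 ± 5.13 CPM in ADAR3 IP, against 42.8 ± 14.9 CPM with pre-immune serum and 61.0 ± 6.63 CPM in input. In CPM all its ADAR3 IP libraries were below input, and they overlapped input under TMM and under median-ratio factors. TNFAIP3 (ENSG00000118503), which encodes the inhibitory enzyme A20, was at 2.28, 2.45, 2.64 and 1.04 CPM in ADAR3 IP, against 5.05, 0, 5.01 and 0 CPM with pre-immune serum and 1.25, 1.28, 1.85 and 1.24 CPM in input. Its pre-immune libraries were either above all others or without a read. BIRC3 (ENSG00000023445) is the paralog of BIRC2 and a known NF-kappaB target. It had 106 reads over the ADAR3 IP libraries, against 34 with pre-immune serum, all in replicate 2, and 36 over input. These read numbers are not scaled to depth, which differs between the groups. Once scaled, the pooled level of BIRC3 was highest with pre-immune serum, at 2.43 CPM, and this value rests on replicate 2 alone. Pooled ADAR3 IP libraries stood at 0.960 CPM, beside 0.961 CPM for pooled input.

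Of the kinases upstream of IKK and their binding partners, 0 of 5 tested members passed the limma test. MAP3K14 (ENSG00000006062), the kinase NIK of the alternative branch, stood at 245, 250.2, 304 and 207 CPM in ADAR3 IP, against 133, 137, 180 and 191 CPM with pre-immune serum and 151, 145, 158 and 129.6 CPM in input. In CPM, all ADAR3 IP libraries were above all others, and pre-immune IP overlapped input. On the deposited normalized counts the lowest ADAR3 IP library, 1839, lay just under the highest pre-immune library, 1857. The log2 fold change was 0.57 ± 0.17 (SE; adjusted p = 0.0939 by limma). It passed in 4 of the 19 alternatives: edgeR (0.0324), DESeq2 (0.0155, equal to the authors' deposited value), TMM factors (0.0352) and without pre-immune replicate 4 (0.0332). Over all alternatives the adjusted p ranged up to 0.326.

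TAB3 (ENSG00000157625), a chain-binding partner of the kinase TAK1, stood at 66.7, 68.7, 64.4 and 61.7 CPM in ADAR3 IP, against 39.8, 39.7, 59.0 and 48.0 CPM with pre-immune serum and 38.8, 33.7, 36.7 and 32.1 CPM in input. The 3 groups did not overlap, with ADAR3 IP highest and input lowest. Its log2 fold change over pre-immune IP was 0.42 ± 0.23 (SE; adjusted p = 0.361 by limma), and the authors' deposited table gives 0.41 with an adjusted p of 0.0343. Its paralog TAB2 (ENSG00000055208) averaged 128 ± 12.2 CPM in ADAR3 IP, against 97.3 ± 46.9 CPM with pre-immune serum and 90.9 ± 5.82 CPM in input, with all ADAR3 IP libraries above input and pre-immune libraries on both sides. MAP3K7 (ENSG00000135341), which encodes TAK1 itself, averaged 67.8 ± 13.2 CPM in ADAR3 IP, against 96.0 ± 23.8 CPM with pre-immune serum and 73.2 ± 4.35 CPM in input, and its log2 fold change was -0.57 ± 0.23 (SE; adjusted p = 0.226 by limma). TAB1 (ENSG00000100324), the activating partner of TAK1, had a log2 fold change of 0.36 ± 0.48 (SE; adjusted p = 0.703 by limma).

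The mRNAs of the IKK complex gave 0 calls among 3. CHUK (ENSG00000213341), the kinase IKK-alpha, stood at 32.8, 22.1, 28.9 and 29.1 CPM in ADAR3 IP, against 27.9, 44.0, 83.8 and 17.6 CPM with pre-immune serum and 42.2, 39.5, 44.1 and 41.7 CPM in input. All ADAR3 IP libraries were below input, and the pre-immune libraries spanned both. IKBKB (ENSG00000104365), the kinase IKK-beta, stood at 89.5, 76.9, 99.3 and 109.96 CPM in ADAR3 IP, against 79.5, 69.4, 94.3 and 105 CPM with pre-immune serum and 76.3, 76.6, 79.2 and 84.2 CPM in input. All 3 groups overlapped. Its log2 fold change was 0.04 ± 0.20 (SE; adjusted p = 0.933 by limma), with a 95% interval of -0.40 to 0.48. IKBKG (ENSG00000269335), the regulatory subunit NEMO, stood at 21.8, 15.8, 16.4 and 21.0 CPM in ADAR3 IP, against 16.4, 6.08, 7.97 and 29.3 CPM with pre-immune serum and 14.5, 13.3, 12.5 and 14.2 CPM in input. Its ADAR3 IP libraries were all above input. The gene has a near-identical pseudogene copy, so its counts are uncertain.

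The other IkappaB family members did not pass the test. NFKBIB (ENSG00000104825), which encodes IkappaB-beta, averaged 27.9 ± 3.82 CPM in ADAR3 IP, against 25.5 ± 24.6 CPM with pre-immune serum and 31.8 ± 2.97 CPM in input, with 0 reads in pre-immune replicate 2. Its log2 fold change, 1.96 ± 1.62 (SE; adjusted p = 0.538 by limma), was the largest of the 27, while the ratio of mean CPM was 1.09. Without pre-immune replicate 2 the log2 fold change was -0.03 ± 0.57. NFKBIE (ENSG00000146232), which encodes IkappaB-epsilon, had a log2 fold change of -0.83 ± 0.65 (SE; adjusted p = 0.523 by limma). NFKBIZ (ENSG00000144802) and BCL3 (ENSG00000069399) encode nuclear members of the family that act on transcription, and had log2 fold changes of -0.30 and 0.54 (limma adjusted p = 0.716 and 0.396). NFKBIA was thus the one inhibitor called of 5 tested, and the difference between it and the other inhibitors was not tested.

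Of the NF-kappaB subunits, 0 of 5 were called. RELA (ENSG00000173039), the transactivating subunit p65 that IkappaB-alpha binds, stood at 52.2, 43.4, 58.4 and 54.6 CPM in ADAR3 IP, against 25.3, 32.5, 30.5 and 6.93 CPM with pre-immune serum and 37.4, 41.1, 45.3 and 40.4 CPM in input. All ADAR3 IP libraries were above all pre-immune libraries, which were in turn all below input. ADAR3 IP overlapped input in CPM and lay above it under TMM and under median-ratio factors. Its log2 fold change over pre-immune IP was 1.26 ± 0.48 (SE; adjusted p = 0.198 by limma), and 0.76 ± 0.24 without pre-immune replicate 4, its lowest (adjusted p = 0.0873). NFKB1 (ENSG00000109320), the precursor of p50, stood at 58.4, 60.2, 42.6 and 41.2 CPM in ADAR3 IP, against 13.7, 65.8, 23.0 and 58.1 CPM with pre-immune serum and 40.4, 43.4, 43.9 and 44.2 CPM in input, and all groups overlapped. NFKB2 (ENSG00000077150), the precursor of p52, was below input in both IPs in CPM, at 34.0 ± 3.59 CPM in ADAR3 IP, against 25.8 ± 17.2 CPM with pre-immune serum and 54.7 ± 3.20 CPM in input. RELB (ENSG00000104856), the partner of p52, and REL (ENSG00000162924) had log2 fold changes of 0.35 and -0.57 (limma adjusted p = 0.772 and 0.716).

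Of the secreted targets, CCL2 (ENSG00000108691) was the one above the minimum, and it was not called. CCL2, a monocyte chemoattractant, stood at 86.1, 100.01, 94.5 and 85.2 CPM in ADAR3 IP, against 132, 127, 74.5 and 212 CPM with pre-immune serum and 184, 215, 183 and 193 CPM in input. All ADAR3 IP libraries were below input, at 0.472 of its mean, while pre-immune libraries overlapped both. Its log2 fold change over pre-immune IP was -0.56 ± 0.29 (SE; adjusted p = 0.346 by limma). IL6 (ENSG00000136244), the inflammatory cytokine interleukin-6, stood at 6.73, 4.08, 13.0 and 5.75 CPM in ADAR3 IP, against 1.42, 2.86, 1.59 and 0 CPM with pre-immune serum and 10.6, 9.78, 9.23 and 11.2 CPM in input. ADAR3 IP lay above pre-immune IP in every library and overlapped input, and pre-immune IP lay below input. Its reads numbered 810 for ADAR3 IP, against 22 with pre-immune serum, and the ratio of pooled levels was 4.67 with a 95% exact interval of 3.07 to 7.50, which covers counting error only and not the spread between libraries. Leaving out 1 library gave ratios of 3.49 to 5.88. IL6 was below the minimum of the limma test, and edgeR gave an adjusted p of 0.349. The authors' deposited table gives a log2 fold change of 2.19 with an adjusted p of 0.0163. CXCL8 (ENSG00000169429), which encodes the neutrophil chemoattractant interleukin-8, had 35 reads in ADAR3 IP, all in replicate 1. It had 0 in pre-immune IP and 26 over the 4 input libraries. The groups differ in depth, and the pooled levels were 0.317 CPM in ADAR3 IP and 0.694 CPM in input, with overlapping libraries. With no filter on low values, limma gave it a log2 fold change of 0.89 ± 0.75 (SE; adjusted p = 0.512).

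Set beside input, 6 of the 27 members had every ADAR3 IP library above every input library, where 29.2% of 11107 genes did: NFKBIA, IKBKG, TRAF3, TAB2, TAB3 and MAP3K14. Another 6 had every ADAR3 IP library below every input library, where 31.7% of genes did: NFKB2, CHUK, BIRC2, CYLD, TRADD and CCL2. Each 6 is 22.2% of the 27, below the share of all genes. Without ADAR3 IP replicate 2 the count above input was 10, or 37.0%, where 32.1% of genes were above, so which share is higher turned with that library. Over the 27, ADAR3 IP over input had a median log2 ratio of 0.11, beside 0.0019 over all genes. For pre-immune IP over input, 1 member, TAB3, was above in every library, where 5.90% of genes were. In the other direction it was 4, NFKB2, RELA, RELB and TNFRSF1A, where 16.4% of genes were. The count of 1 became 3 without pre-immune replicate 1, where 9.35% of all genes were above, and 3 without replicate 4, where 10.7% were. It became 2 without replicate 2, where 10.6% of all genes were above, and 2 without replicate 3, where 9.02% were. Of the 6 members above input in ADAR3 IP in CPM, NFKBIA alone had a mean in pre-immune IP below that in input. The ratios of pre-immune IP over input of the other 5 were 1.07 to 1.57. Under TMM and under median-ratio factors this was not particular to NFKBIA. RELA was then also above input in ADAR3 IP, with every pre-immune library below input.

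**Figure D3:**
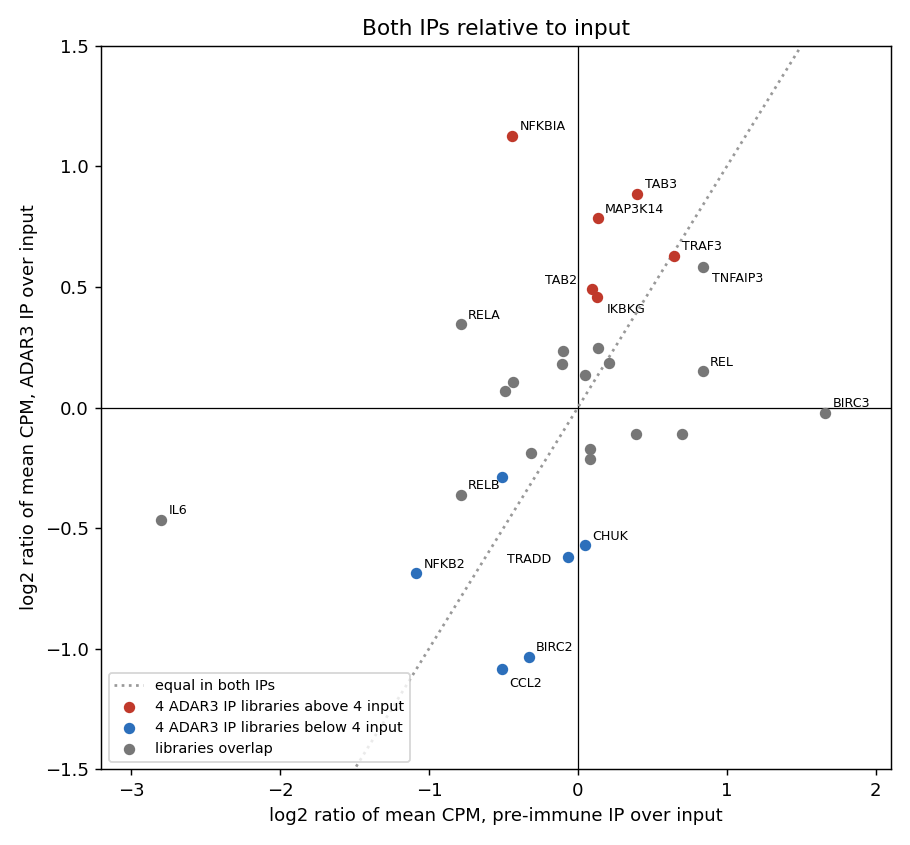
Log2 ratio of mean CPM to input, ADAR3 IP (vertical) against pre-immune IP (horizontal), for the 30 mRNAs with reads in all groups; TRAF1 and CXCL8 had none in pre-immune IP. Points above the dotted line are higher in ADAR3 IP than in pre-immune IP; NFKBIA lies above input in ADAR3 IP, at 2.19 times its mean, and below it in pre-immune IP, at 0.736 times.

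**Figure D4:**
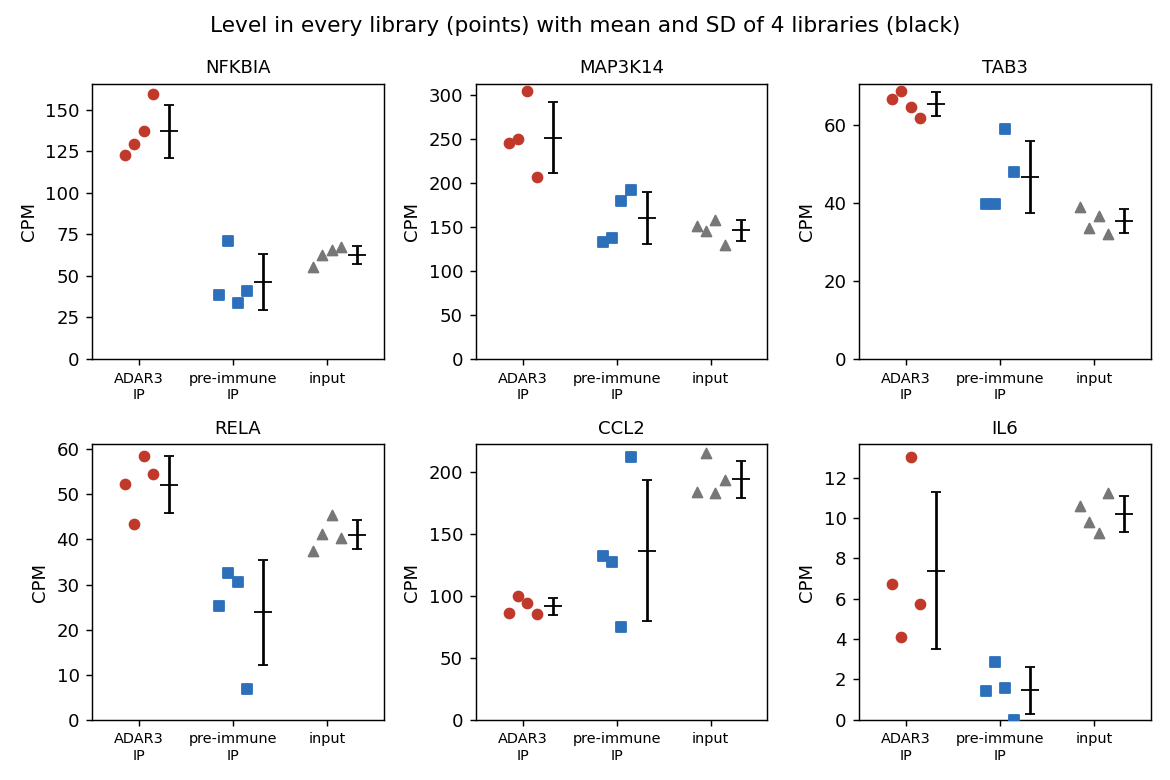
CPM of NFKBIA, MAP3K14, TAB3, RELA, CCL2 and IL6 in every library (points), with mean and SD of 4 libraries (black), on axes that start at 0. NFKBIA, MAP3K14 and TAB3 have all ADAR3 IP libraries above both other groups, CCL2 has them below input, and RELA and IL6 have them above pre-immune IP but overlapping input.

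Pre-immune IP had the fewest reads of the 3 groups and the largest median SD. ADAR3 IP held 110371176 reads in all, against 14008919 with pre-immune serum and 37477547 in input. Of the 32 mRNAs, 1 had an ADAR3 IP library with 0 reads, against 6 with such a pre-immune library and 0 with such an input library. Input, with fewer reads than ADAR3 IP, had the smaller median SD. The part of depth in the results of single members was not tested. In bulk libraries, fewer copies of an mRNA recovered and more of other RNAs recovered cannot be told apart, since each level is a share of its library.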

How the data were processed

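Groups and replicate numbers were taken from sample titles. The deposited tables hold a normalized signal per gene and library, tested to be whole reads divided by 1 size factor per library: 100% of values were whole multiples of 1 read within 0.001 reads. Reads and CPM were recomputed from them. The authors' deposited log2 fold changes and p-values come with the IP table and are called theirs where used. The deposited test statistic, a score, was not used. Per the submitters' processing notes, STAR 2.7.7a, featureCounts, DESeq2 and GRCh38 were used, without stated roles; the annotation and the strand setting were not given in the sources used. Per the labels' protocols, libraries followed depletion of ribosomal RNA and had 15 cycles of amplification, input libraries began with 1 µg of RNA and IP libraries with all RNA recovered, so amounts recovered are not compared. No column of other samples was found.

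limma 3.58.1 (R 4.3.3) was run on log2(normalized count + 1) of the 8 IP libraries, with a variance trend, for genes with a mean of at least 50, and Benjamini-Hochberg adjustment over all 11112 genes at 0.05. On this scale low genes can show too small a change, or one too large or of the other sign where a library lacks reads. With no filter on low values, BIRC3 had a log2 fold change of 1.21 while its ratio of mean CPM was 0.311. Alternatives were edgeR 4.0.16 (quasi-likelihood) and DESeq2 1.42.0 on recovered reads, other scalings, pseudocounts, minimums, group weights, a replicate block and leaving out libraries. The fits were tested on simulated data that gave all genes of a group the same spread. Single libraries that lack the reads of a gene were not modelled, so the simulation does not cover such genes. DESeq2 gave the values of the authors' deposited table for all 32 members, so both are 1 result and not separate evidence. Levels beside input were not tested; each of the 2 deposited tables had its own normalization. Same-numbered libraries deviated together at correlations of -0.0016 to 0.0236, so numbers were not taken to pair them.

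All members were named. Every library's value was given for members called, fully separated from pre-immune IP, or separated from input by at least 2-fold, and for 10 named in every case. Members and lists were chosen with earlier results of these data known. The files name genes by Ensembl identifier, and the reference table held 0 such identifiers, so symbols of members come from the member list, and other pathway genes and cell type markers were not analysed here.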

Additional observations from a re-analysis of the deposited data

Results flagged for a closer look

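Of 97 sets of 4 values, the level of each member and of their sum in each group, 5 had 1 library standing apart from the other 3 by Dixon's test, and chance marks about 1 set in 20. CXCL8 reached 1.21 CPM in ADAR3 IP replicate 1 and 0 in the other 3 ADAR3 IP libraries. BIRC3 reached 12.2 CPM in pre-immune replicate 2 and 0 in the other 3 pre-immune libraries. TAB1 reached 45.3 CPM in ADAR3 IP replicate 4, against 28.7 to 29.9 CPM in the others. TNFAIP3 reached 1.85 CPM in input replicate 3, the shallowest input library, against 1.24 to 1.28 CPM in the others. BIRC2 fell to 16.5 CPM in input replicate 4, against 18.9 to 19.4 CPM in the others.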

How the results depend on the processing

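NFKBIA was called higher in all 19 alternatives, with log2 fold changes of 1.38 to 1.78 and adjusted p-values of 4.96e-06 to 0.0395. The count of members lower in ADAR3 IP stayed 0 in all of them. The count of members higher, 1, became 3 with edgeR, 6 with DESeq2 (the values of the authors' deposited table), and 2 with TMM factors, with a minimum mean of 10 and with no filter on low values. The cause was not tested, except that the lower minimums admit TRAF1. Members tested numbered 30 with edgeR and with DESeq2, 31 at a minimum mean of 10 and 32 with no filter, against 27 in the main setting. Leaving out 1 library gave 1 to 2, the 2 without pre-immune replicate 4. Over all genes, 259 higher and 193 lower became 998 and 244 with edgeR, 1571 and 1010 with DESeq2, 449 and 129 with TMM factors, 659 and 244 at a minimum mean of 10, 1493 and 233 with no filter, 142 and 55 with group weights, and 106 to 446 and 65 to 345 without 1 library. The median log2 fold change of tested members, 0.34, became 0.19 with edgeR, 0.11 with DESeq2 and 0.48 with TMM factors, and 0.19 to 0.36 without 1 library, beside medians over all genes of 0.08, 0.05, 0.39 and 0.15 to 0.25. With the replicate block, limma called 1 member higher (NFKBIA, adjusted p = 0.00547) and 0 lower, as did edgeR with the block (added after the data were seen, as was leaving out libraries from pooled reads). Members not called changed sign in 26 of 494 pairs of member and alternative, never with a call. Beside input, the count above in ADAR3 IP, 6, ranged from 6 to 10 without 1 library and the count above in pre-immune IP, 1, from 1 to 3, with 2 under median-ratio factors. At the depth of pre-immune IP, 3 reads over the group correspond to 0.214 CPM, and TRAF1 and CXCL8 had no read there.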
